A study of Homo sapiens with 6 samples.

Results

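The nuclear-encoded genes of the respiratory chain were examined in SK-Hep-1 cells with and without knockdown of the lncRNA *RAB30-DT*. They were chosen by symbol, as the protein-coding genes of GENCODE 44 whose symbol starts with NDUF, SDHA, SDHB, SDHC, SDHD, UQCR or ATP5, or with COX and a digit from 4 to 8. This gave 102 of 62700 genes. By name they fell into 37 subunits of complex I, 8 of its assembly factors (*NDUFAF1* to *NDUFAF8*), 8 genes of complex II with its assembly factors, 9 of complex III, 19 of complex IV and 19 of complex V. A further 2 were readthrough genes, which join 2 neighbouring genes and belong to no class. *NDUFA4* and *NDUFA4L2* were counted with complex IV, where the protein of *NDUFA4* is found.

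RNA–Seq had been performed on poly(A)-selected RNA of 6 libraries of SK-Hep-1, an established human cell line from a liver tumor that the study describes as endothelial-derived. The 3 control libraries were titled as carrying a control shRNA, although their genotype label was WT. The 3 knockdown libraries carried an shRNA against *RAB30-DT*. The study made 2 such shRNAs, and the labels give these libraries as replicates without naming the shRNA, so their spread could include a difference between shRNAs. The study made its stable lines by lentiviral transduction and puromycin selection, and packaged control vectors into lentivirus as well. Vector and selection are thus part of what the knockdown cells carry. The same holds for the control cells if they carry the control shRNA of their titles. The sources used here do not say whether a line was 1 clone. The labels number the replicates of each group from 1 to 3 without saying whether they came from separate cultures, so p-values measure the spread between these libraries. In bulk RNA, fewer cells with a transcript and less transcript per cell cannot be told apart.

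The respiratory chain sits in the inner mitochondrial membrane. Complexes I and II pass electrons from NADH and succinate to ubiquinone, complex III passes them on to cytochrome c and complex IV to oxygen, and ATP synthase (complex V) uses the resulting proton gradient to make ATP. Apart from a small set encoded in mitochondrial DNA, the subunits are encoded in the nucleus, and transcription factors such as NRF1, the ETS factor GABP and YY1 are known to act on many of their promoters. Some complex IV subunits have a second gene that is used in muscle, testis, or lung and hypoxia.

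Because these factors are the textbook regulators of the chain, their core motifs were looked up in RefSeq promoters of GRCh38.p14, which span 250 bases before to 50 bases after a gene's start. Promoters were found for 82 of the 102 members. The NRF1 motif searched, a palindrome of 10 bases that the capitals below spell out, was present in 5 of them (6.1%) and in 1.36% of all 27305 promoters. The 5 sites are shown 5′ to 3′ along the gene's strand in windows of 30 bases, with the motif in capitals, to show where it lies in each gene. They lie at chr10:7788145-7788174 (plus strand) for *ATP5F1C*, chr9:122159764-122159793 (minus) for *NDUFA8*, chr20:13785014-13785043 (plus) for *NDUFAF5*, chr3:120596167-120596196 (plus) for *NDUFB4* and chr11:112086753-112086782 (plus) for *SDHD*.
ATP5F1C: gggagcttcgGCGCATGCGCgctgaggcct
NDUFA8: gttgccggatGCGCATGCGCaggcgccgtg
NDUFAF5: agccgcgctgGCGCATGCGCacaaaaagcg
NDUFB4: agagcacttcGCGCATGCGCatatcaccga
SDHD: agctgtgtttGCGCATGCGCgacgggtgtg

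The YY1 motif, again spelled by the capitals and searched on both strands, was present in 4 members (4.88%, against 0.916% of all promoters). In each it lay within the 50 bases after the gene's start. The windows are chr12:4649115-4649144 (plus strand) for *NDUFA9*, chr5:53560651-53560680 (plus) for *NDUFS4*, chr1:17054002-17054031 (minus) for *SDHB* and chr3:48609603-48609632 (minus) for *UQCRC1*.
NDUFA9: ttgtgggaaAAGATGGCGGCtgccgcacaa
NDUFS4: gcctgcagcAAGATGGCGGCggtgtcaatg
SDHB: tcaggagccAAGATGGCGGCggtggtcgcc
UQCRC1: tgcagctggAAGATGGCGGCgtccgtggtc

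The ETS motif CCGGAAGT was present on either strand in 11 members (13.4%, against 4.44% of all promoters), and the core of the hypoxia response element, ACGTG, in 21 (25.6%, against 21.6%). No overlap with another motif was removed, and a match describes letters, not a bound site. The median log2 fold change was −0.19 in the 5 tested members with the NRF1 motif and −0.11 in the 73 without it. It was −0.16 in the 4 with the YY1 motif and −0.11 without it, −0.03 in the 11 with the ETS motif and −0.12 without it, and −0.09 in the 20 tested with ACGTG and −0.12 without it.

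In each library between 13732 and 14094 genes reached 1 TPM (a measure of transcript level that is scaled for transcript length and to a fixed total). The authors deposited TPM values without read numbers, so depth and counting error are unknown. *RAB30-DT* itself was at 11.5 to 18.2 TPM in control and 6.50 to 11.9 TPM in knockdown libraries. Its log2 fold change of −0.55 did not pass the test (limma, adjusted p = 0.355). The label of the knockdown thus rests on the study, which reports the knockdown in SK-Hep-1 cells by qPCR. Of 8 hepatocyte markers only *SERPINA1* had a mean of at least 1 TPM, at 18.1 to 24.0 TPM in control and 28.3 to 37.2 TPM in knockdown libraries, and *ALB*, *APOB*, *TTR* and *HNF4A* were at 0. The 5 endothelial markers summed to 0.13 to 0.22 TPM in control and 0.36 to 0.38 TPM in knockdown libraries, with *KDR* at 0 and *PECAM1* at or near 0. The endothelial label was therefore not borne out by these markers. All 4 mesenchymal markers had a mean of at least 1 TPM. They summed to 4314 to 4682 TPM in control and 5032 to 5564 TPM in knockdown libraries. Most of this was *VIM*, at 3793 to 3997 TPM in control and 4336 to 4784 TPM in knockdown libraries. *COL1A1* was at only 0.59 to 2.41 and 0.82 to 2.15 TPM. The epithelial, leukocyte and striated muscle markers were at or near 0, each list summing to at most 0.45 TPM. The part of these differences in the results below was not tested.

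The respiratory chain genes were among the more abundant transcripts of SK-Hep-1. Of the 102 members, 59 had a mean of at least 100 TPM, and the median of the 95 tested members was 127 TPM against 15.5 TPM for all 14020 genes tested. *COX4I1* of complex IV, *UQCRH* of complex III, *ATP5MK* of complex V and *NDUFS5* of complex I had the highest mean of their complexes. Together the members summed to 18046.8, 19902.7 and 18528.3 TPM in the control libraries (replicates 1, 2 and 3, in this order throughout) and to 16137.0, 16446.6 and 18447.6 TPM in the knockdown libraries. The means were 18826 ± 963 and 17010 ± 1254 TPM (SD, n = 3 each). The groups overlapped, with knockdown replicate 3 above control replicate 1.

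Of the 102 members, 95 reached a mean of 1 TPM and were tested with limma on log2(TPM + 1). None of the 95 was called higher and none lower at an adjusted p under 0.05, where 0.371% of all tested genes were called higher and 0.67% lower. At an unadjusted p under 0.05 there were 9 members (9.47%), against 16.8% of all tested genes. The smallest adjusted p among members was 0.124. The 95% interval of the log2 fold change reached a median of 0.41 to either side of the estimate for members and 0.58 for all tested genes. In 82 members this interval lay within a 2-fold change in either direction, and in 13 it reached further.

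The estimates leaned to lower values in knockdown cells. The log2 fold change was below 0 in 67 of 95 members (70.5%), against 53.7% of all tested genes, and its median was −0.14 against −0.04. Median-of-ratios scaling and rescaling without mitochondrially encoded genes left 62 and 67 estimates below 0 (medians −0.10 and −0.13), whereas quantile normalization left 43, with a median of 0.02. The median was −0.05 without control replicate 2 and −0.19 without knockdown replicate 3. The knockdown libraries all lay above the control libraries in 3 members (3.16%, against 9.89% of all tested genes) and all lay below them in 11 (11.6%, against 13.4%). In the other 81 the groups overlapped. These shares were near or under the background of all genes.

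The count of calls rested on how the libraries were weighted. The arrayWeights of limma were 0.33, 3.00 and 0.32 in control and 0.78, 4.39 and 0.95 in knockdown libraries. Calls made with them thus rest mostly on 1 library of each group, replicate 2. With these weights 4 members were called higher and 23 lower, against 9.18% and 13.8% of all tested genes. These 23 held 10 subunits of complex I, the assembly factor *NDUFAF1*, *UQCRQ*, *COX7A2*, *COX8A*, *NDUFA4L2* and 8 members of complex V, *ATP5F1B* and *ATP5MC1* among them. The 4 called higher were *NDUFA10*, *NDUFAF6*, *SDHAF2* and *COX7A2L*. With GC trends removed 1 member was called higher, *SDHAF1*, and 0 lower, against 3.8% and 4.69% of all tested genes. With GC and length trends removed 1 was called higher, again *SDHAF1*, and 2 lower, *ATP5F1B* and *SDHAF3*, against 3.99% and 4.77%. Without control replicate 1, the library that deviated most with GC content, 0 were called higher and 2 lower, *NDUFS6* and *ATP5MF*, against 1.3% and 2.19%.

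**Figure D1:**
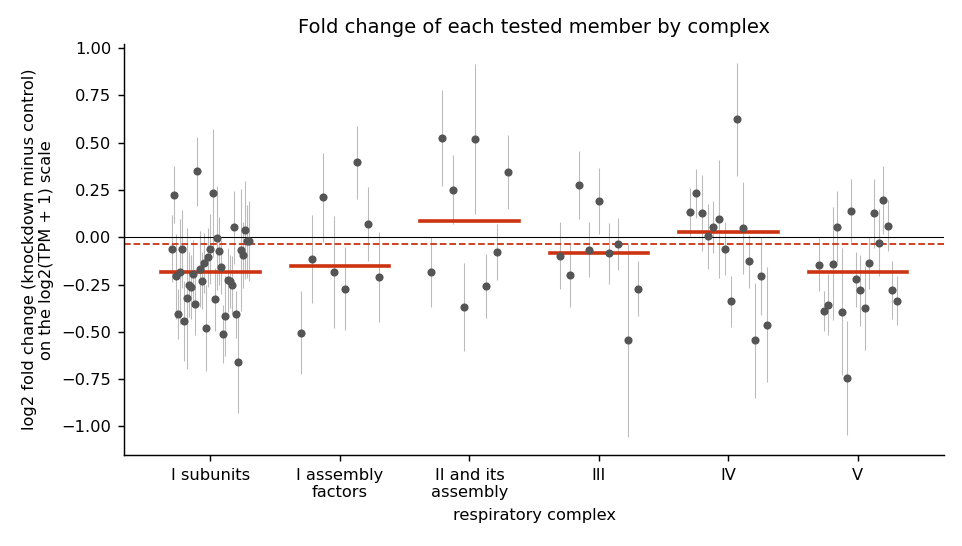
Log2 fold change (knockdown minus control, log2(TPM + 1) scale) of the 94 tested members of the classes; points are genes in alphabetical order with their standard errors, red bars the median of each class, and the dashed line the median of all 14020 genes tested. Medians lay between −0.18 (complex I subunits and complex V) and 0.09 (complex II with its assembly factors), and no point passed the test.

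Complex I, the NADH dehydrogenase, is the largest complex of the chain. Of its 37 subunits 32 had an estimate below 0, with a median log2 fold change of −0.18. No subunit was called, and the knockdown libraries all lay below the control libraries in 6 subunits and above them in 1, where 13.4% and 9.89% of all tested genes did so. The summed level of the subunits was 5830 ± 520 TPM in control and 5020 ± 554 TPM in knockdown libraries (SD, n = 3 each), and the groups overlapped. With quantile normalization the median was −0.02.

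*NDUFS5*, an accessory subunit facing the intermembrane space, was the most abundant subunit of complex I. It is found at positions 39026318 to 39034636 of chromosome 1 (hg38, plus strand). It was at 527, 511 and 492 TPM in control and 365, 370 and 419 TPM in knockdown libraries. All 3 knockdown libraries lay below all 3 control libraries. The log2 fold change was −0.41 (standard error 0.12, limma adjusted p = 0.152), short of the threshold. *NDUFS5* has 6 named pseudogenes, all listed at 0 TPM in every library, and its level is uncertain to the extent that reads were shared.

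*NDUFC1*, another accessory subunit, was at 57.4, 60.1 and 52.9 TPM in control and 38.5, 37.6 and 42.4 TPM in knockdown libraries, again without overlap. Its log2 fold change was −0.51 (standard error 0.16, limma adjusted p = 0.157). It overlaps *NAA15* on the other strand, a gene of like level (49.9 TPM), and the sources used here do not say whether reads were counted by strand. *NDUFS6*, a zinc-binding accessory subunit, had the lowest estimate of the subunits. Its values were 169, 312 and 312 TPM in control and 139, 148 and 203 TPM in knockdown libraries, where knockdown replicate 3 was above control replicate 1. The log2 fold change was −0.66 (standard error 0.27, limma adjusted p = 0.269), and without control replicate 1 it was −0.95 with an adjusted p of 0.0382. The other 5 fits that left out a library gave −0.83 to −0.51, with adjusted p from 0.345 to 0.580.

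The highest estimates belonged to *NDUFAB1*, the mitochondrial acyl carrier protein, with 0.35, and to *NDUFB5*, with 0.23. Both overlapped between groups. *NDUFB5* ranged from 37.4 to 107 TPM in control libraries and from 74.2 to 83.2 TPM in knockdown libraries, so its estimate rests on a wide control group. *NDUFA10* was the subunit in which the knockdown libraries all lay above the control libraries, at 73.8 to 87.9 against 88.8 to 99.6 TPM. The gap between control replicate 3 and knockdown replicate 3 was small, and the log2 fold change was 0.23 (limma adjusted p = 0.493).

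Some further subunits were chosen for description after their values were seen. *NDUFS1*, *NDUFS3*, *NDUFS7*, *NDUFS8* and *NDUFV2* had log2 fold changes between −0.25 and −0.02, and *NDUFV1*, which binds NADH and FMN, had 0.04. *NDUFS3* was at 80.2, 86.7 and 97.7 TPM in control and 75.9, 67.9 and 77.5 TPM in knockdown libraries. These groups did not overlap, but the margin was small and the difference of −0.25 did not pass the test (limma adjusted p = 0.455). *NDUFS3* overlaps *PTPMT1* on the same strand, a gene at 21.3 TPM. Also without overlap and below control were *NDUFA12* (−0.40) and *NDUFB6* (−0.33), with adjusted p of 0.187 and 0.364.

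Among the 8 assembly factors of complex I the median log2 fold change was −0.15, 5 estimates were below 0 and none was called. *NDUFAF1*, which helps to build the membrane arm, was at 14.04, 17.5 and 11.2 TPM in control and 9.33, 8.68 and 10.9 TPM in knockdown libraries. The groups stood apart by a small margin, and the log2 fold change was −0.50 (standard error 0.22, limma adjusted p = 0.295). *NDUFAF1* overlaps *RTF1* on the other strand, which was at 21.1 TPM, above its own mean of 11.9 TPM. *NDUFAF6* had the highest estimate, 0.40, and *NDUFAF3* followed with 0.21, which was −0.03 without control replicate 3. *NDUFAF5*, which hydroxylates *NDUFS7* and whose promoter is one of those shown above, had −0.27, and *NDUFAF8*, the most abundant, −0.21. All 4 overlapped between groups.

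Complex II, succinate dehydrogenase, also works in the citric acid cycle. It was the class with the highest median, 0.09, with 4 estimates above 0 and 4 below. Unlike the complex I subunits, this class includes assembly factors, so its median is not one of subunits alone. Above 0 were the assembly factors *SDHAF1* (0.53), *SDHAF2* (0.25) and *SDHAF4* (0.52) and the subunit *SDHD*. The summed level was 567 ± 39.9 TPM in control and 551 ± 19.7 TPM in knockdown libraries (SD, n = 3 each), with overlap. The iron–sulfur subunit *SDHB* was the most abundant, at 139 to 214 TPM over all libraries, with a log2 fold change of −0.26. The flavoprotein *SDHA* had −0.18 and the membrane anchors *SDHC* and *SDHD* −0.08 and 0.35. None of the 4 catalytic or anchor subunits separated the groups.

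*SDHAF1*, which helps to insert iron–sulfur clusters into *SDHB*, was at 6.55, 11.4 and 10.5 TPM in control and 12.1, 12.6 and 17.1 TPM in knockdown libraries. The knockdown libraries were all higher. The log2 fold change was 0.53 (standard error 0.25, limma adjusted p = 0.340). After removal of library-wise GC trends it was 0.65 and the adjusted p 0.0363, and with arrayWeights it was 0.26 (adjusted p = 0.293). *SDHAF3*, which works with *SDHAF1*, had −0.37, and *SDHAF4*, which acts on the flavinated *SDHA*, had 0.52 at 0.95 to 5.43 TPM. Both overlapped between groups.

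Complex III, the cytochrome bc1 complex, had no member whose groups stood apart. Its members summed to 1670 ± 49.7 TPM in control and 1631 ± 44.4 TPM in knockdown libraries (SD, n = 3 each), with overlap. The median log2 fold change was −0.09, and 7 of 9 estimates were below 0. The hinge protein *UQCRH*, the most abundant, had −0.03 with a 95% interval from −0.35 to 0.28. After *UQCRHL*, *UQCRQ* had the lowest estimate, −0.27, and *UQCRB* and *UQCRC2* the highest, 0.27 and 0.19. *UQCRHL*, an intronless near copy of *UQCRH*, was at 20.1, 28.4 and 22.3 TPM in control and 25.2, 5.56 and 26.0 TPM in knockdown libraries. Its estimate of −0.55 rests on knockdown replicate 2, and the split of reads between the near copies is uncertain.

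Complex IV, cytochrome c oxidase, had estimates on both sides of 0. Of its 14 tested members 8 had estimates above 0 and 6 below, with a median of 0.03, and the sum was 3865 ± 248 TPM in control and 3797 ± 357 TPM in knockdown libraries (SD, n = 3 each). As a share of the TPM of all members, complex IV made up 20.7%, 20.9% and 20.0% in control and 21.7%, 22.6% and 22.7% in knockdown libraries. The shares did not overlap, while those of complexes I, II, III and V did. This is 1 of 6 classes and was singled out after the values were seen. With 3 libraries a group an exact test cannot go below 0.1.

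*COX5A*, a subunit on the matrix side, was at 313, 311 and 270 TPM in control and 370, 343 and 338 TPM in knockdown libraries. The knockdown libraries were all higher, and the log2 fold change was 0.23 (standard error 0.13, limma adjusted p = 0.409). *COX7A2*, the form of subunit 7A found in most tissues, lay in the other direction. It was at 348, 373 and 333 TPM in control and 259, 267 and 307 TPM in knockdown libraries, with a log2 fold change of −0.34 (standard error 0.13, limma adjusted p = 0.255). Its relative *COX7A2L*, which takes part in joining complexes III and IV into supercomplexes, had the highest estimate of all members. *COX7A2L* was at 124, 93.1 and 50.3 TPM in control and 137, 132 and 120 TPM in knockdown libraries. Control replicate 1 was above knockdown replicate 3, and the wide control group left the log2 fold change of 0.62 with a standard error of 0.30 (limma adjusted p = 0.342). *COX8A* had the lowest estimate of the class, −0.55, at 266, 485 and 493 TPM in control and 204, 255 and 393 TPM in knockdown libraries. In both groups replicate 1 was the lowest for *COX8A*.

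**Figure D2:**
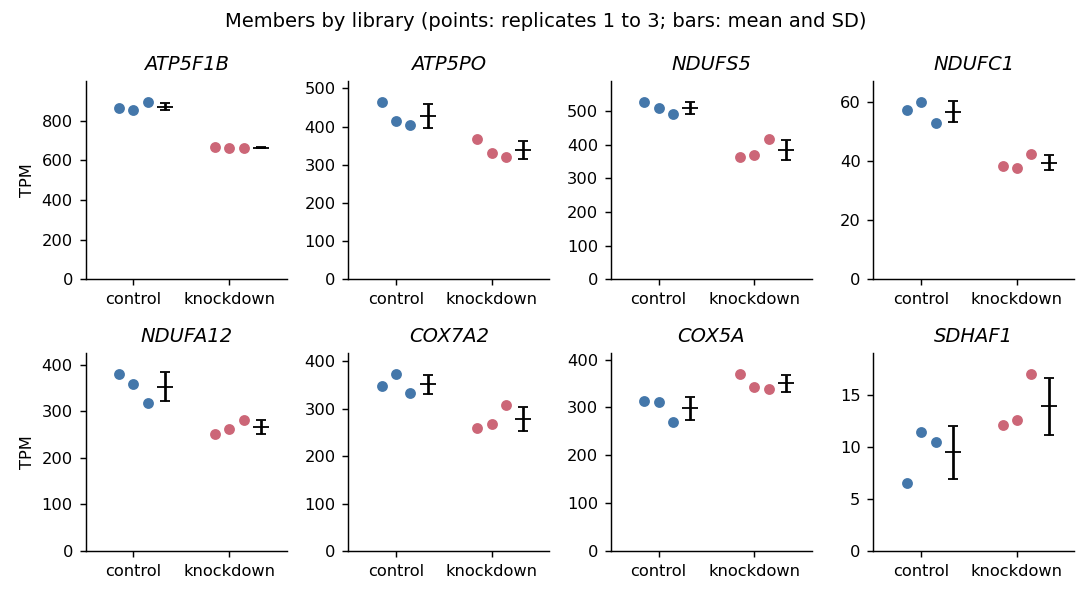
TPM of 8 members in each library; points are replicates 1 to 3 from left to right, bars the mean and SD of each group (n = 3), and each axis starts at 0. In *ATP5F1B*, *ATP5PO*, *NDUFS5*, *NDUFC1*, *NDUFA12* and *COX7A2* all knockdown points lie below all control points, and in *COX5A* and *SDHAF1* all lie above, yet none passed the test across all genes.

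The isoform pairs of complex IV showed which form SK-Hep-1 cells used. *COX4I1*, the form of subunit 4 found in most tissues (chromosome 16, 85798633 to 85807068, plus strand), was at 677, 735 and 760 TPM in control and 708, 799 and 881 TPM in knockdown libraries. Its partner *COX4I2* (chromosome 20, 31637912 to 31645006, plus strand), the form of lung and of hypoxic cells, was listed at 0 in all 6 libraries. The log2 fold change of *COX4I1* was 0.13 with a 95% interval from −0.16 to 0.43 (limma adjusted p = 0.634). The same one-sided use was seen for *COX6A1* over *COX6A2*, *COX7B* over *COX7B2* and *COX8A* over *COX8C*, whose second forms, of muscle or testis, were listed at 0 throughout. *COX7A1*, the muscle form of subunit 7A, was listed at 0 in 5 libraries and at 0.62 TPM in control replicate 3. *COX6B2*, the testis form of subunit 6B, stood just above the filter at 0.59 to 1.62 TPM, against 397 to 495 TPM for *COX6B1*.

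*NDUFA4* and *NDUFA4L2* form another pair, of which *NDUFA4L2* is known to be induced in hypoxia. *NDUFA4* was at 70.0, 72.8 and 45.8 TPM in control and 53.1, 54.7 and 51.9 TPM in knockdown libraries. *NDUFA4L2* was at 1.85, 3.11 and 2.32 TPM in control and 1.52, 0.87 and 2.15 TPM in knockdown libraries. Both overlapped between groups, and the log2 ratio of the pair differed by 0.26 (exact two-sided permutation test, p = 0.5). *NDUFA4L2* overlaps *SHMT2* on the other strand, a gene at 111 TPM. Where the partner was at 0 in all libraries, the ratio holds only the level of the first gene and cannot show a switch. With 3 libraries against 3 the lowest exact p is 0.1, so none of the 12 ratios formed in all complexes could pass, and the lowest p adjusted over them was 0.6.

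Complex V, ATP synthase, had the same median as the complex I subunits, −0.18, with 13 of 18 tested members below 0 and none called. Its members summed to 6352, 6805 and 6433 TPM in control and to 5559, 5389 and 6037 TPM in knockdown libraries. It was the only class whose sums in TPM did not overlap between groups, 6530 ± 241 against 5662 ± 336 TPM (SD, n = 3 each), a ratio of 0.867. Without *ATP5F1B* the sums still did not overlap, but with median-of-ratios scaling they did (5931 to 6856 against 5291 to 6400). With quantile normalization the median of the class was 0.01.

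**Figure D3:**
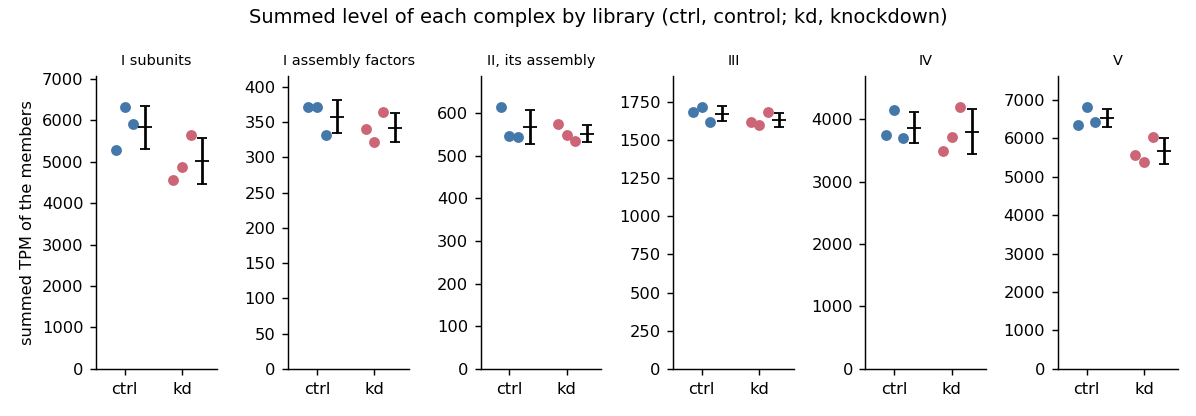
Summed TPM of the members of each class in each library; points are replicates 1 to 3, bars the mean and SD of each group (n = 3), and each axis starts at 0. The groups overlap in every class but complex V, where control libraries lie at 6352 to 6805 and knockdown libraries at 5389 to 6037 TPM.

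*ATP5F1B*, the catalytic beta subunit, is found at positions 56638175 to 56645984 of chromosome 12 (minus strand) and had the smallest adjusted p of all members. It was named for this after its values were seen. Its level was 866, 854 and 892 TPM in control and 665, 660 and 664 TPM in knockdown libraries. Both groups were tight and stood well apart. The log2 fold change was −0.39 (standard error 0.11, limma adjusted p = 0.124), and it stayed between −0.41 and −0.37 when single libraries were left out. The fit draws each gene's variance toward that of genes of like level, so this standard error does not rest on these 6 values alone.

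A pair of stalk subunits also lay below control in all knockdown libraries. *ATP5PO*, the peripheral stalk subunit known as OSCP, was at 464, 415 and 405 TPM in control and 366, 330 and 320 TPM in knockdown libraries, with a log2 fold change of −0.34 (limma adjusted p = 0.246). *ATP5F1C*, the gamma subunit of the rotating stalk and another gene whose NRF1 motif is shown above, was at 252, 217 and 203 TPM in control and 200, 172 and 153 TPM in knockdown libraries, with −0.36 (limma adjusted p = 0.314). *ATP5F1A*, the alpha subunit that alternates with beta in the head, overlapped between groups and had −0.15. *ATP5F1D* and *ATP5F1E*, the delta and epsilon subunits, had −0.14 and 0.06. Estimates of the alpha, beta, gamma, delta and epsilon subunits thus ran from the −0.39 of *ATP5F1B* to the 0.06 of *ATP5F1E*.

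In the other members of complex V the groups overlapped. *ATP5MK*, the most abundant of them at 657 to 1023 TPM, had −0.03. *ATP5PB*, a peripheral stalk subunit, had the highest estimate, 0.20, and *ATP5IF1*, the inhibitor that blocks ATP hydrolysis by the enzyme, had −0.39 at 107 to 253 against 103 to 182 TPM. *ATP5MG* had −0.14, and its copy *ATP5MGL* was at most 0.12 TPM.

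The rotor ring of ATP synthase is built of subunit c, which is encoded by 3 genes, *ATP5MC1*, *ATP5MC2* and *ATP5MC3*, with the same mature protein. *ATP5MC1* (chromosome 17, 48892765 to 48895871, plus strand) was at 209, 334 and 382 TPM in control and 124, 183 and 249 TPM in knockdown libraries. It had the lowest log2 fold change of all members, −0.74, with a standard error of 0.30 (limma adjusted p = 0.266), and knockdown replicate 3 was above control replicate 1. *ATP5MC2* was at 394, 552 and 461 TPM in control and 473, 475 and 599 TPM in knockdown libraries (log2 fold change 0.14). *ATP5MC3* was at 312, 360 and 281 TPM in control and 267, 254 and 293 TPM in knockdown libraries (log2 fold change −0.22).

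Within a library, the ratio of *ATP5MC1* to *ATP5MC2* separated the groups. Its log2 value was −0.91, −0.72 and −0.27 in control and −1.93, −1.37 and −1.26 in knockdown libraries, a difference of −0.88 (exact two-sided permutation test, p = 0.1, adjusted p = 0.6 over 12 ratios). The ratio of *ATP5MC2* to *ATP5MC3* was 0.34, 0.62 and 0.71 in control and 0.82, 0.90 and 1.03 in knockdown libraries, a difference of 0.36 with the same exact p. The ratio of *ATP5MC1* to *ATP5MC3* overlapped (difference −0.52, exact p = 0.3). In both groups *ATP5MC1* was lowest in replicate 1 and highest in replicate 3. *ATP5MC1* and *ATP5MC2* have 8 and 5 named pseudogenes, whose summed levels in a library were at most 2.53 and 0 TPM.

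**Figure D4:**
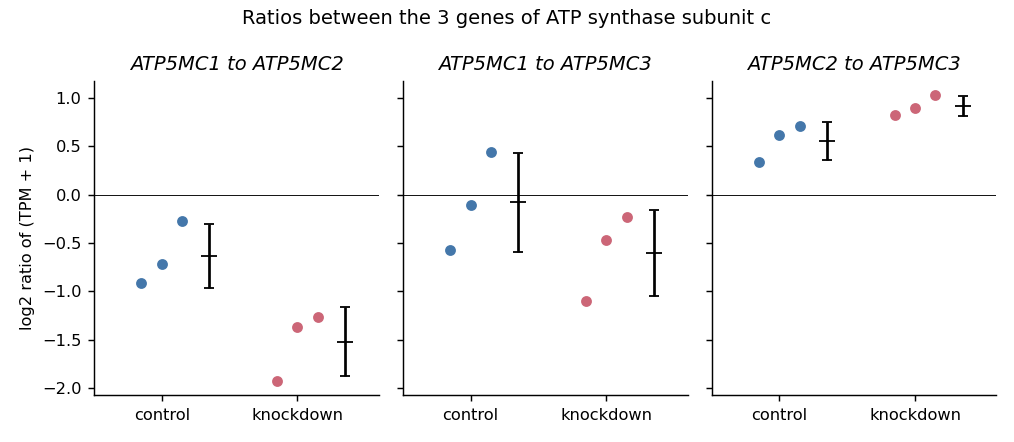
Log2 ratios of (TPM + 1) between the 3 genes of subunit c in each library; points are replicates 1 to 3, bars the mean and SD (n = 3). The ratio of *ATP5MC1* to *ATP5MC2* is at −0.91 to −0.27 in control and −1.93 to −1.26 in knockdown libraries, without overlap, while that of *ATP5MC1* to *ATP5MC3* overlaps.

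The members that were not tested lay under the filter. *COX4I2*, *COX6A2*, *COX7B2* and *COX8C* were listed at 0 in every library, *COX7A1* and *ATP5MGL* had the values given above, and the readthrough *NDUFC2-KCTD14* was at 0.59, 1.74 and 1.43 TPM in control and 0, 0 and 2.11 TPM in knockdown libraries. Just above the filter were *COX6B2*, *NDUFA4L2* and *SDHAF4*. Of the 102 members, 52 have named pseudogenes, 195 in all, whose summed level was 21.0 to 49.1 TPM in a library. Of the 95 tested members, 31 overlap another expressed gene.

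Genes that work with the chain but fall outside the choice by symbol were read from lists made for this purpose. Earlier results of these data were known when the lists were made, so they are not independent of the values. Of 49 further assembly factors 47 were tested and none was called, with 22 estimates above 0, 25 below and a median of −0.02. The lowest adjusted p among them were those of *UQCC1*, an assembly factor of complex III (log2 fold change −0.87, limma adjusted p = 0.0588), and *FMC1*, one of ATP synthase (−1.24, 0.0589). *COX17*, the copper chaperone of complex IV, followed with −0.76 (0.0832), and *ATPAF2*, which binds the alpha subunit of ATP synthase, with −0.93 (0.0911). These 4 were named after their values were seen, and in each all knockdown libraries were below all control libraries. The same held for 8 of the 47 tested genes of the list and for 13.4% of all tested genes. Over the 20 alternatives *UQCC1* was called in 7, *FMC1* and *ATPAF2* in 6 each and *COX17* in 5. Some of these alternatives called many genes, with 13.8% of all tested genes lower under arrayWeights and 4.69% with the GC trend removed. The 13 mitochondrially encoded subunits had 8 estimates above 0, 5 below, a median of 0.04 and no call, and their sum was 91610 ± 8323 TPM in control and 92046 ± 10600 TPM in knockdown libraries (SD, n = 3 each).

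Of the electron carriers and of the dehydrogenases that feed ubiquinone from outside complexes I and II, 7 of 9 were tested, all 7 had estimates below 0, and 2 were called lower, where 53.7% of all tested genes had estimates below 0 and 0.67% were called lower. *GPD2*, the mitochondrial glycerol-3-phosphate dehydrogenase, was at 32.4, 25.4 and 17.5 TPM in control and 8.38, 9.16 and 6.10 TPM in knockdown libraries and fell by 1.53 on the log2 scale (standard error 0.26, limma adjusted p = 0.0432). *SQOR*, which oxidizes sulfide and passes the electrons to ubiquinone, was at 57.1, 46.0 and 50.6 TPM in control and 28.3, 24.2 and 24.4 TPM in knockdown libraries and fell by 0.97 (standard error 0.17, limma adjusted p = 0.0448). Both calls were close to the threshold. When single libraries were left out, *GPD2* was called without control replicate 1 or 3 but not without control replicate 2 or any knockdown replicate, and *SQOR* was called in 1 of 6 fits, without control replicate 1, with adjusted p up to 0.180 and 0.252. Over all 20 alternatives *GPD2* was called in 13 and *SQOR* in 10, and both estimates stayed below 0, at −1.76 to −1.20 and −1.04 to −0.87. *SQOR* was not called with median-of-ratios scaling or quantile normalization. Cytochrome c itself (*CYCS*) was at 187, 186 and 162 TPM in control and 144, 137 and 140 TPM in knockdown libraries, with −0.34 (limma adjusted p = 0.268).

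The 11 genes of coenzyme Q synthesis had a median of −0.24, with 9 estimates below 0 and no call. Of 14 regulators of the chain and of mitochondrial DNA transcription 13 were tested and none was called, with a median of −0.11. NRF1 had −0.32, the GABP subunits *GABPA* and *GABPB1* 0.47 and −0.75, YY1 −0.11 and *TFAM*, which packages and transcribes mitochondrial DNA, −0.25. *GABPB1* was the one of these 5 with all knockdown libraries below all control libraries (10.5 to 13.4 against 15.2 to 31.8 TPM, limma adjusted p = 0.233). *GABPA* shares its locus with *ATP5PF* on the other strand.

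The libraries differed in how levels moved with GC content, and the members moved with them. Across the 95 tested members, Spearman's rho between GC content of the exons and the deviation from the 6-library mean was −0.64, 0.30 and 0.43 in control libraries and −0.48, 0.07 and 0.49 in knockdown libraries. These are correlations across genes, which are not independent replicates. In control replicate 1 the 47 GC-rich members had a median deviation of −0.08 and the 48 GC-poor members 0.18, and in knockdown replicate 1 the values were −0.19 and 0.05. Replicate 1 was thus low for GC-rich members in both groups. The median log2 fold change was −0.14 in the GC-rich and −0.12 in the GC-poor members, and −0.11 over all members with the trend removed.

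**Figure D5:**
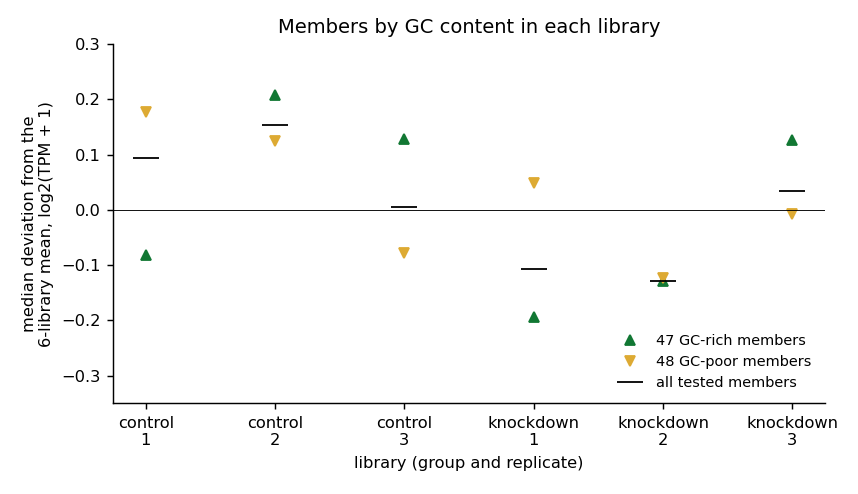
Median deviation of the tested members from their mean over the 6 libraries (log2(TPM + 1)), for 47 GC-rich and 48 GC-poor members split at a GC content of 47.1% and for all 95. GC-rich members lie under GC-poor members in replicate 1 of both groups, at −0.08 against 0.18 and at −0.19 against 0.05, and above them in replicate 3.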

How the data were processed

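RNA–Seq of 6 libraries (3 control, 3 knockdown, grouped by title) was available as gene-level TPM. The methods name fastp for trimming, STAR for alignment and RSEM for quantification, whereas the processing notes name HISAT2 2.0.5 and hg38. The authors deposited TPM. All identifiers were those of GENCODE 44, whereas the methods name a later release. Values were analysed as log2(TPM + 1) with limma 3.58.1 (lmFit, eBayes with trend, two-sided, no replicate block, R 4.3.3) for the 14020 genes whose mean reached 1 TPM, with Benjamini–Hochberg adjustment over these and a threshold of 0.05. The fit was tested on simulated data whose noise was independent between genes, without the GC trends or shared replicate variation seen here. Isoform ratios were compared by exact two-sided permutation tests (scipy 1.17.1, Python 3.11.15), adjusted over 12 ratios. Classes, lists and motifs were chosen with earlier results of these data known. Named by rule were called members, the 2 highest and 2 lowest estimates and the most abundant gene of each class, isoform pairs, and 3 members on each side of the filter; other genes were named after their values were seen. Alternatives were other pseudocounts (0.1, 5), filters, scalings, variance models, arrayWeights (gene-by-gene method), removal of trends with GC content and exon length (loess, span 0.3), a replicate block and each library left out in turn. One member is counted in the totals but its values are not reported here.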

Additional observations from a re-analysis of the deposited data

How the results depend on the processing

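Of 95 members, 0 were called higher and 0 lower, with 9 at an unadjusted p under 0.05. With limma's arrayWeights, which gave control replicate 2 and knockdown replicate 2 most of the weight, 4 were called higher and 23 lower (all genes 9.18% and 13.8%). These calls thus rest mostly on 1 library of each group. With the GC trend removed 1 was called higher, *SDHAF1*. With the GC and length trends removed 1 was called higher, *SDHAF1*, and 2 lower, *ATP5F1B* and *SDHAF3*. With each library left out in turn, 0 to 2 were called lower, the 2 being *NDUFS6* and *ATP5MF* without control replicate 1, and 0 higher. The median log2 fold change was −0.14, with 0.0209 under quantile normalization, −0.22 with arrayWeights and −0.19 to −0.0506 with a library left out (lowest without knockdown replicate 3, highest without control replicate 2). The causes were not tested.

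Deviations of libraries with the same replicate number correlated at 0.41, 0.04 and 0.28 for replicates 1, 2 and 3. The highest correlation of each control library with a knockdown library of another number was −0.09, 0.11 and 0.06. Replicates 1 and 3 thus shared variation by number and replicate 2 did not, and the main fit held no replicate block. Members at an unadjusted p under 0.05 (limma) numbered 24 with the block and 9 without it. The share of all genes at that p with the block was not worked out, so the rise cannot be read as particular to the members. Calls over all genes also rose with the block, from 0.371% to 2.22% higher and from 0.67% to 3.92% lower. With the replicate block 0 members were called higher and 1 lower, *ATP5MC1* (−0.74, limma adjusted p = 0.0245), against 2.22% and 3.92% of all genes. With the block and the GC trend removed 0 were called higher and again 1 lower, *ATP5MC1* (limma adjusted p = 0.0297), against 3.03% and 4.3%. In that fit *SDHAF1*, called with the GC trend removed alone, was not called (limma adjusted p = 0.0667).

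Depth is unknown, and genes of low level, near copies and overlapping genes are less certain than their standard errors show.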
